A study of Homo sapiens with 5 samples.

Results

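Mucin genes were examined in DRIP-seq libraries of the human lung adenocarcinoma line PC-9. The 10 mucins taken were MUC1, MUC2, MUC4, MUC5AC, MUC5B, MUC6, MUC12, MUC16, MUC17 and MUC20, and their peaks were all peaks that the deposited lists assign to one of these names. They came to 59 of 80323 peaks, and 8 of the 10 mucins had at least 1. Of 10 protein-coding genes flanking the mucins, 7 had at least 1. The share of all annotated genes with a peak was not counted. In DRIP-seq sonicated genomic DNA that carries R-loops is precipitated with S9.6, an antibody to RNA:DNA hybrids, and a peak is an interval where precipitated reads pile up above the local background. The groups were 2 libraries labelled exp and 2 labelled control. The exp libraries are taken here as the FANCI knockdown named in the study's design text, since the labels of the single libraries say only exp, and FANCI is a Fanconi anaemia protein of DNA crosslink repair. The knockdown agent and its duration are not stated in the labels, and both groups are the same cell line with no other treatment named in the labels. A single input library served as read counts over the peaks. Nothing in the labels says that libraries of a group were separate cultures, and the spread that enters the p-values may then be technical.

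Mucins are very large glycoproteins whose central domains are built of tandem repeats rich in serine, threonine and proline, to which O-linked sugars are attached. MUC2, MUC5AC, MUC5B and MUC6 are secreted and form the gel of mucus, and their genes lie side by side on chromosome 11. MUC1, MUC4, MUC12, MUC16, MUC17 and MUC20 are held at or near the cell surface, and several of them are used as markers of adenocarcinoma. An R-loop forms where a transcript pairs with its template strand and leaves the coding strand single, and it is favoured where the coding strand is rich in G over C. GC skew is the number of G minus the number of C over their sum, so that a value above 0 on the coding strand means a G-rich transcript and a value below 0 a C-rich one. The deposited skew refers to the reference strand and was turned here to the coding strand of the assigned gene. No RNA or protein was measured here, so it is not known which of these mucins the cells transcribed.

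Promoter sequences from RefSeq (GRCh38.p14, 250 bases before to 50 after the start of a gene) were matched for 6 of the 10 mucins, MUC1, MUC2, MUC4, MUC12, MUC16 and MUC17. Both windows below are shown for their contrast in skew: the first is the one mucin promoter window that any mucin peak reached, and the second is the start of MUC5B-AS1, an antisense lncRNA inside MUC5B, whose span covers the merged region of MUC5B. Each is written 5′ to 3′ on the strand of its own gene, and capitals mark runs of at least 3 G.
MUC4, chr3:195811880-195812179, minus strand: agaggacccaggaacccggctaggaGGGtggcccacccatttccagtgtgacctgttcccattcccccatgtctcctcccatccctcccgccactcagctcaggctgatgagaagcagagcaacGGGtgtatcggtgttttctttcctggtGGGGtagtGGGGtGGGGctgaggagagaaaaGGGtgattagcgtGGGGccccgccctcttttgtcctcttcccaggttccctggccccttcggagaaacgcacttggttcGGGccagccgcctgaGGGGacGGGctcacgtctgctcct
MUC5B-AS1, chr11:1249627-1249926, minus strand: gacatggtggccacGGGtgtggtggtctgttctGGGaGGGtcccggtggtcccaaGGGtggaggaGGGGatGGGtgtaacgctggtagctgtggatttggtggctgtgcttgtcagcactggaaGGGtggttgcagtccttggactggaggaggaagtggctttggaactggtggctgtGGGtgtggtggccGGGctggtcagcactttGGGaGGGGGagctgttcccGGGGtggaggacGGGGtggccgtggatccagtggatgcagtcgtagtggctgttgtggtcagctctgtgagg
The MUC4 window held 93 G and 93 C, a skew of 0.0, with 10 runs of G. The MUC5B-AS1 window held 140 G and 48 C, a skew of 0.489, with 13 runs of G, against a median of 6 runs over 34796 distinct promoter windows. Of those windows, 0.293% had a skew at least as high as that of MUC5B-AS1 and 11.3% had at least as many G runs. For the MUC4 window these shares were 54.3% and 23.9%. The motif GGGG was present on the gene's strand in both windows, as in 75.1% of all windows, and GGGG or its complement CCCC on that strand was present in 89.6% of all windows. Read along MUC5B, which is transcribed from the other strand, the bases of the MUC5B-AS1 window are C-rich. Among the matched mucins, MUC1 had the highest promoter skew, 0.198 with 13 runs of G, and it had no peak. Its shares were 10.8% for skew and 11.3% for G runs.

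The lists held 16785 and 14354 peaks in exp 1 and exp 2 and 25281 and 23903 peaks in control 1 and control 2, with medians of 28 and 24 DRIP reads per peak in exp and 30 and 27 in control. Genes with a peak numbered 5054 and 4032 in exp and 7046 and 7006 in control. Sequencing totals per library were not used here, and DRIP and input reads are given as counted, without scaling for depth.

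Fewer mucin peaks were called in the exp libraries, by about the ratio seen for all genic peaks, and with lists cut to equal length the groups overlapped. The mucins held 11 and 10 peaks in exp 1 and exp 2, against 21 and 17 in control 1 and control 2. The means were 10.5 ± 0.707 in exp and 19 ± 2.83 in control (SD, n = 2 each), a ratio of 0.553, while the ratio was 0.549 for all genic peaks and 0.633 for all peaks. The exp libraries did not overlap the controls in this number, with p = 0.333 by an exact two-sided permutation test, and with 2 against 2 no lower p is possible. With the best 14354 peaks of each list the means were 10.5 in exp and 11.5 in control, a ratio of 0.913 with an exact p = 1. Scaled to the length of each list, mucins took 6.55 and 6.97 of 10000 peaks in exp and 8.31 and 7.11 in control, a ratio of 0.877 with an exact p = 0.333. That ratio turned to 1.19 when only peaks with a −log10 q of at least 2 were kept and to 1.05 when mucins were taken by their RefSeq span. The bases under mucin peaks were 22565 and 23976 in exp and 39782 and 33619 in control, a ratio of 0.634. For all peaks, genic and intergenic, the ratio was 0.665. Other genic peaks covered 4406794 and 3354068 bases in exp and 6699500 and 6863195 in control. These sums move with how much was called, and the mean density of DRIP reads under mucin peaks was 42.9 and 35.2 per kb in exp and 53.1 and 42.0 per kb in control, values that overlapped between the groups (exact p = 0.667). Under all other genic peaks the density was 75.8 and 73.5 per kb in exp and 82.2 and 68.0 per kb in control.

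**Figure D1:**
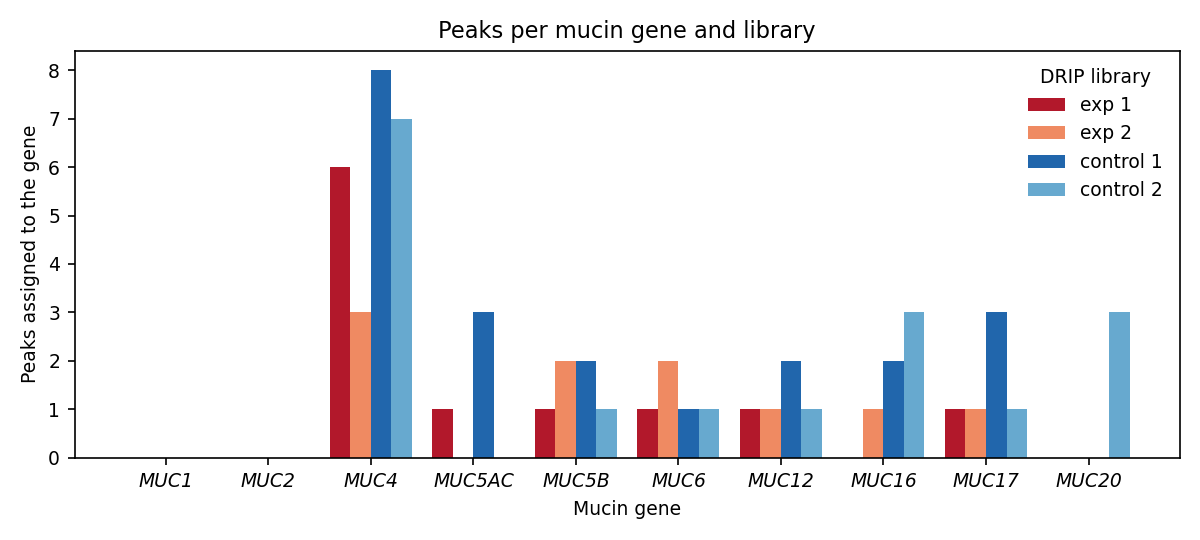
Number of peaks assigned to each of the 10 mucin genes (x axis) in each DRIP library (bars: exp 1, exp 2, control 1, control 2). MUC4 holds 6 and 3 peaks in exp and 8 and 7 in control, MUC20 only has peaks in control 2, and MUC1 and MUC2 have no bar.

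MUC4, MUC5B, MUC6, MUC12 and MUC17 had a peak in each of the 4 libraries. They were 5 of the 8 mucins with any peak, where 10.9% of the 12325 genes with a peak in any list had one in all 4. The number of such mucins was 3 with a −log10 q of at least 2, and 3 with only peaks of more DRIP than input reads. The length of the genes was not matched in this comparison, and the mucin genes here span 7092 bp (MUC1) to 216908 bp (MUC16). MUC16 had peaks in exp 2 and in both controls, MUC5AC in exp 1 and control 1, and MUC20 in control 2. No mucin was present in both exp libraries and neither control, where 1.37% of genes were, and none was present in both controls and neither exp library, where 8.52% were. By library, 6 and 6 of the 8 mucins with any peak had one in exp, and 7 and 7 had one in control. Of the 12325 genes with a peak in any list, 41% and 32.7% had one in exp 1 and exp 2. In control 1 and control 2 the shares were 57.2% and 56.8%.

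Merged over libraries, the mucin peaks formed 31 regions. Of these, 19 were called in 1 library, 5 in 2, 2 in 3 and 5 in all 4. The regions in all 4 libraries made up 16.1% of the mucin regions, against 2.19% of all genic regions. They lay in MUC4 (2 of them), MUC6, MUC12 and MUC5B, the last joined only through a long peak of control 1. Mucin peaks were at least 1 kb wide in 5 of 11 and 7 of 10 cases in exp and in 6 of 21 and 7 of 17 in control. The same width was reached by 5.01% and 5.73% of other genic peaks in exp and by 5.96% and 5.15% in control. A longer peak has more chance of overlapping a peak of another library, and width was not matched here. By the deposited location labels, 54 mucin peaks lay in a gene body, 10 in a promoter and 1 in a terminator, with 6 carrying both of the first labels. Some peaks labelled promoter lay well inside the RefSeq span of their gene. Examples are chr11:1249993-1250831 in MUC5B and chr19:8981826-8982654 in MUC16. Exon, intron and repeat annotation was not used here, so the peaks are not placed relative to the tandem-repeat exons.

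MUC4, a membrane mucin that pairs with the receptor ERBB2, held 24 of the 59 peaks. The gene (ENSG00000145113) lies on the minus strand at chr3:195746771-195811929. Its strongest region, chr3:195774910-195778219, was called once in every library and was G-rich on the coding strand, with a skew of 0.905 and 0.779 in exp 1 and exp 2 and 0.867 and 0.876 in control 1 and control 2. The deposited fold enrichment over local background was 19.9 and 19.9 in exp and 27.1 and 22.0 in control, the highest of any mucin peak in each list. By that value it ranked 4 and 3 among all peaks of the exp lists and 3 and 1 among all peaks of the control lists. The 4 summits lay within 124 bp of each other. DRIP reads numbered 200 and 197 in exp and 265 and 201 in control, over 25 and 30 input reads in exp and 29 and 27 in control.

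Per kb of peak, this G-rich region of MUC4 held 75.2 and 59.5 DRIP reads in exp and 92.7 and 71.1 in control, so the groups overlapped. Its log2 fold change, exp over control, was -0.11 ± 0.19 (SE) with an adjusted p = 0.970 by edgeR's quasi-likelihood test. That test took DRIP reads scaled for peak width over the 1370 regions that had a single peak in every library, and it called 0 of them (0%), with 96 at an unadjusted p under 0.05. DESeq2's own test also called 0, with 21 at an unadjusted p under 0.05. Library scaling in both tests came from these same regions, so each log2 fold change given here is relative to them. A change shared by all of them would not show.

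Directly next to it on MUC4, nearer to the gene's start, lay a long region of the opposite skew. This C-rich region, chr3:195778713-195788514, was covered by 2 peaks in each exp library and by 1 peak in each control, with a skew between -0.539 and -0.531 in all 6 peaks. The peaks covered 7322 and 6238 bp in exp and 9802 and 9395 bp in control. DRIP reads, unscaled for depth and counted over fewer bases in exp, came to 242 and 179 in exp and 482 and 301 in control. The exp libraries lay below both controls (exact permutation p = 0.333, the lowest possible). The share of all regions that part in this way was not counted. With 2 peaks in each exp library, this region was not in the edgeR test. Reads per kb were 33.1 and 28.7 in exp and 49.2 and 32.0 in control, so the groups overlapped, with exp 1 above control 2. Input reads here ran at 17.3 and 16.7 per kb in exp lists and 16.6 and 16.8 per kb in control lists, against 9.41 and 9.06 in exp and 10.1 and 9.55 in control over the G-rich region. DRIP reads per input read were therefore 1.91 and 1.72 in exp and 2.96 and 1.91 in control over the C-rich region, and 8.0 and 6.57 in exp and 9.14 and 7.44 in control over the G-rich one.

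**Figure D2:**
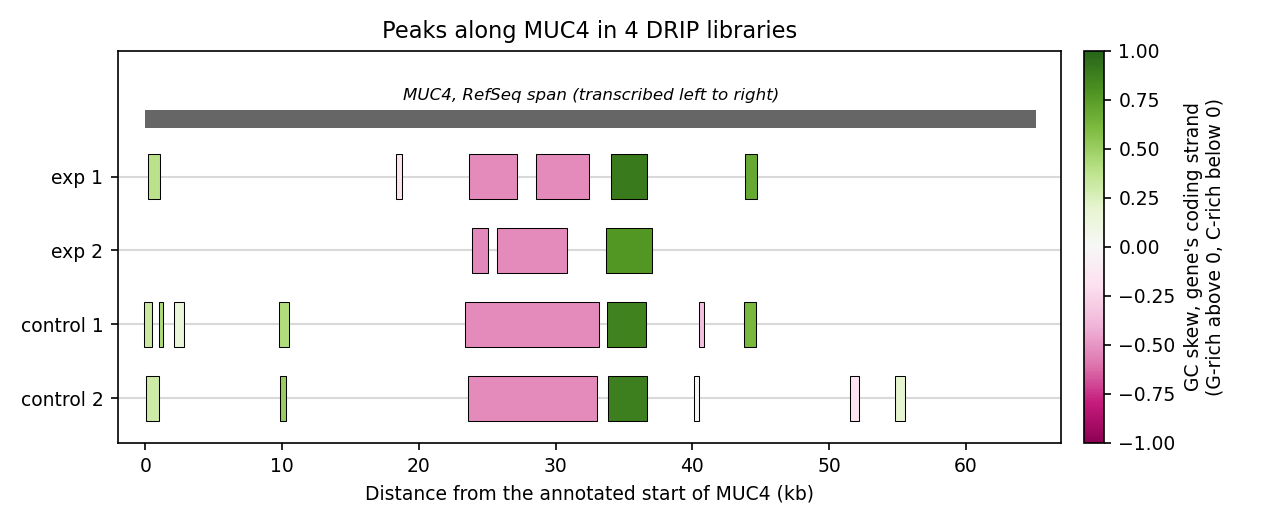
Peaks along MUC4 in the 4 DRIP libraries (rows), by distance in kb from the annotated start of the gene in the direction of transcription; colour gives the GC skew on the coding strand. The G-rich region, with skews of 0.905, 0.779, 0.867 and 0.876, follows the C-rich region, with skews of -0.539 to -0.531, in every library.

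The start of MUC4 carried weaker G-rich peaks in 3 of the 4 libraries. Exp 1 had 1 peak at chr3:195810850-195811713 with 46 DRIP and 9 input reads, and exp 2 had none. Control 1 had peaks at chr3:195810625-195810953 (17 DRIP and 0 input reads) and chr3:195811458-195811992 (47 and 11), and control 2 had 1 at chr3:195810911-195811910 (63 and 13). Their skew was 0.387 in exp 1 and 0.310 to 0.431 in the controls, and their fold enrichment was 4.10 in exp 1 and 3.20 to 5.75 in the controls. The second peak of control 1 reached 113 bases and that of control 2 reached 31 bases into the promoter window printed above, whose own skew was 0.0. Further regions of MUC4 were chr3:195767224-195768169, with folds of 4.96 in exp 1 and 6.87 in control 1 and skews of 0.689 and 0.622, and chr3:195801428-195802145, which had a peak in both controls (51 and 28 DRIP reads) and none in exp. The share of all regions called in both controls alone was not counted, and the control lists held more peaks. The MUC4 peak with the densest input, 30.0 reads per kb, was at chr3:195793158-195793624 in exp 1. The bases under MUC4 peaks came to 18.6% and 14.7% of the gene's span in exp and 25.0% and 23.6% in control.

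MUC6 (ENSG00000184956), the gel-forming mucin of gastric glands, lies on the minus strand at chr11:1012823-1036718. Its region at chr11:1016663-1018485, toward the far end of the gene, was called in all 4 libraries and was C-rich, with skews of -0.585 and -0.581 in exp and -0.577 and -0.581 in control. It held 121 and 114 DRIP reads in exp and 190 and 116 in control, with fold enrichments of 4.25 and 5.13 in exp and 6.18 and 3.95 in control. Input reads were 51 and 53 over the exp peaks and 53 and 52 over the control peaks, or 32.3 and 30.4 per kb in exp and 29.7 and 29.8 per kb in control. Control 1 stood above the other 3 libraries, and control 2 lay between exp 1 and exp 2 in DRIP reads. The edgeR log2 fold change was -0.10 ± 0.21 (SE), adjusted p = 0.980. Exp 2 had a further MUC6 peak at chr11:1022374-1023129 with 32 DRIP and 7 input reads.

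MUC2, the gel-forming mucin of the intestine, had no peak by name in any list. The RefSeq span of the gene, chr11:1074874-1110508 on the plus strand, nevertheless held 1 peak in every list, which the deposited annotation labels intergenic. These peaks formed the region chr11:1095840-1099308, with skews on the MUC2 strand between -0.673 and -0.670. They held 85 and 93 DRIP reads in exp and 127 and 94 in control, over 12 and 18 input reads in exp and 20 and 18 in control. Fold enrichment was 8.27 and 10.9 in exp and 12.5 and 9.03 in control, which ranked 98 and 22 in the exp lists and 54 and 50 in the control lists. The deposited fold was thus higher than that of any MUC6 peak of the same list. The DRIP density, 35.7 and 31.0 reads per kb in exp and 39.3 and 29.2 in control, overlapped between the groups. The edgeR log2 fold change was 0.14 ± 0.22 (SE), adjusted p = 0.970. These peaks are not among the 59.

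MUC5AC (ENSG00000215182), a gel-forming mucin of the airway surface, spans chr11:1157953-1201138 on the plus strand and had the most C-rich mucin peaks. At chr11:1173101-1173726, exp 1 held 27 DRIP and 6 input reads with a fold of 3.72 and control 1 held 43 and 5 with a fold of 6.21, at skews of -0.961 and -0.954. Upstream of the gene, control 1 had a peak labelled promoter at chr11:1154498-1156198 with 93 DRIP and 24 input reads and a skew of -0.890. Exp 2 had a peak inside it at chr11:1155297-1155732, labelled intergenic in its list, with 26 DRIP and 13 input reads and a skew of -0.858. Beyond the gene's end, control 1 had a peak labelled terminator at chr11:1201528-1201983 with a skew of 0.862. Control 2 had no MUC5AC peak, so neither the presence nor the absence of a peak followed the groups.

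MUC5B (ENSG00000117983), the main gel-forming mucin of the airways, spans chr11:1223066-1262172 on the plus strand. Peaks of all 4 libraries were merged into the region chr11:1244401-1249260, inside the span of MUC5B-AS1 at chr11:1242261-1249676 on the other strand. No base of it was under a peak in every library: the exp 1 peak, chr11:1244401-1244964, overlapped only the long peak of control 1, and the merged summits spread over 3866 bp. DRIP reads were not resolved by strand, so hybrids of the transcripts of MUC5B and of MUC5B-AS1 cannot be told apart. The peaks were C-rich along MUC5B, with skews from -0.478 to -0.378, and therefore G-rich along MUC5B-AS1. DRIP reads were few, 11 and 36 in exp and 67 and 15 in control, over 5 and 27 input reads in exp and 36 and 27 in control. DRIP reads per kb were 19.5 and 12.4 in exp and 14.8 and 5.66 in control, the lowest of the mucin regions called in all 4 libraries. The best fold enrichment per library was 3.72 and 4.49 in exp and 6.71 and 4.16 in control. In control 2 the peak had fewer counted DRIP than input reads, 15 against 27, while its deposited fold was 4.16. In exp 1 the peak, with 11 DRIP reads, had the same fold of 3.72 as the MUC5AC peak with 27. Counts and deposited folds thus went apart in this region, and the cause was not tested. Control 1 had a further peak at chr11:1249993-1250831, with 25 DRIP and 4 input reads, and the MUC5B-AS1 promoter window printed above lay between the peaks of control 1 without being covered by one.

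**Figure D3:**
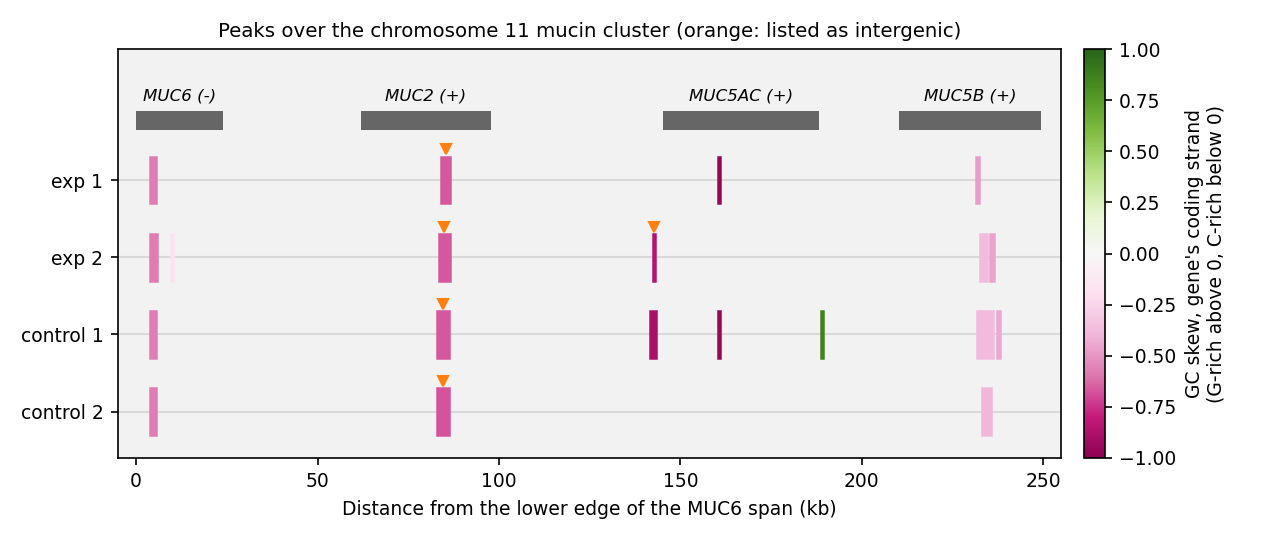
Peaks over the chromosome 11 mucin cluster in the 4 DRIP libraries (rows), by distance in kb from the lower edge of the MUC6 span, with gene spans in grey above; colour gives the GC skew on the coding strand, thin peaks are drawn with an outline of fixed width, and orange triangles mark peaks that the lists label intergenic. The C-rich regions of MUC6 and MUC2 recur in all 4 libraries, the MUC5B peaks join into 1 region through control 1, and MUC5AC has 1 green peak, of skew 0.862, in control 1.

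MUC12 (ENSG00000205277), a membrane mucin of the intestine, spans chr7:100969565-101018936 on the plus strand and held the single longest mucin peak, in control 1. Its region chr7:100993698-101003992 was covered by 1 peak per library, 7423 and 8015 bp wide in exp and 10295 and 8859 bp in control, with skews between -0.388 and -0.383. DRIP reads numbered 223 and 233 in exp and 453 and 256 in control, and input reads numbered 223 and 231 in exp and 270 and 251 in control. DRIP reads per input read were therefore 1.00 and 1.01 in exp and 1.68 and 1.02 in control. Control 1 stood apart from the other 3 libraries, which held nearly as many input as DRIP reads over the whole peak. Across the genic peaks, 0.556% and 1.24% in exp and 0.277% and 0.459% in control had no more DRIP than input reads. Of the mucin peaks this held for 2 of 59, the MUC12 peak of exp 1 and the MUC5B peak of control 2.

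The deposited fold enrichment of the MUC12 region was 7.33 and 9.35 in exp and 15.9 and 3.85 in control, ranks 175 and 41 in the exp lists and 24 and 10406 in the control lists. The controls thus held both the highest and the lowest of the 4 values. The edgeR log2 fold change was -0.11 ± 0.19 (SE), adjusted p = 0.970.

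MUC17 (ENSG00000169876), the neighbouring membrane mucin at chr7:101020081-101058859 on the plus strand, had 6 peaks with skews from -0.265 to 0.205. Their folds ran from 2.80 to 4.96. The median folds of other genic peaks were 3.72 and 3.82 in exp and 4.03 and 3.81 in control. The region chr7:101053723-101054463 was called in exp 1 (23 DRIP and 3 input reads, fold 4.96), exp 2 (25 and 9, fold 3.40) and control 1 (33 and 9, fold 3.37), at summits within 75 bp of each other and with skews of 0.205 and 0.107 in exp and 0.103 in control 1. Control 2 had its MUC17 peak at chr7:101024627-101025989, with 56 DRIP and 17 input reads, overlapping a peak of control 1 with 24 and 5. MUC17 was therefore present in every list, while no region of it was.

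MUC16 (ENSG00000181143), the membrane mucin that carries the CA125 antigen, spans chr19:8848844-9065751 on the minus strand and is the longest of the genes. Its only recurrent region by name, chr19:8867044-8867966, was called in both controls, with 64 and 31 DRIP reads over 6 and 4 input reads, folds of 5.37 and 4.30 and skews of -0.714 and -0.821. As for MUC4, the share of all regions called in both controls alone was not counted. Exp 2 had 1 MUC16 peak, at chr19:8910827-8911354, with 29 DRIP and 6 input reads, a fold of 4.55 and a skew of 0.849. The MUC16 peak with the densest input, 13.3 reads per kb, was at chr19:8981826-8982654 in control 2. A further 5 peaks within the RefSeq span were labelled intergenic, 2 in exp 1, 1 in exp 2 and 1 in each control, and those of exp 2 and control 2 overlapped at chr19:9054355-9054824 with 27 DRIP and 9 input reads each. With those peaks counted, exp 1 also had signal in the gene.

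MUC20 (ENSG00000176945), a small cell-surface mucin at chr3:195720978-195733551 on the plus strand, had 3 peaks, all in control 2. They held 78, 64 and 40 DRIP reads over 33, 20 and 14 input reads, with folds of 2.76, 3.93 and 4.37. Their input density, 40.3, 32.7 and 34.7 reads per kb, was the highest of the mucin peaks. A near-identical copy of the gene, the pseudogene MUC20P1, may share reads with it, so these values are uncertain. MUC1, the epithelial membrane mucin that carries the CA15-3 antigen, spans chr1:155185824-155192915 on the minus strand and had no peak by name or by overlap in any library.

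The recurrent mucin regions differed widely in input density. The MUC6 and MUC12 regions had input densities of 26.2 to 32.3 reads per kb, the MUC4 C-rich region 16.6 to 17.3, the MUC4 G-rich and MUC5B regions 7.97 to 10.2 and the MUC2 region 5.03 to 6.19. Over all mucin peaks the median input density was 12.7 and 12.5 reads per kb in exp and 13.4 and 13.0 in control, beside 13.3 and 14.8 in exp and 13.9 and 13.6 in control for all other genic peaks. The median of the mucins was thus slightly below that of other genic peaks in each list. Without MUC4 the mucin medians were 12.7 and 11.8 in exp and 13.7 and 20.8 in control. The mean difference over the lists was then 0.845 reads per kb above other genic peaks. Only control 2 lay above, and the other lists stayed below. DRIP reads per input read, summed over mucin peaks, were 2.05 and 1.81 in exp and 3.14 and 2.14 in control (exact permutation p = 0.333). For other genic peaks the values were 3.05 and 2.47 in exp and 3.87 and 3.06 in control, so the exp libraries lay below the controls there too, exp 1 only just.

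**Figure D4:**
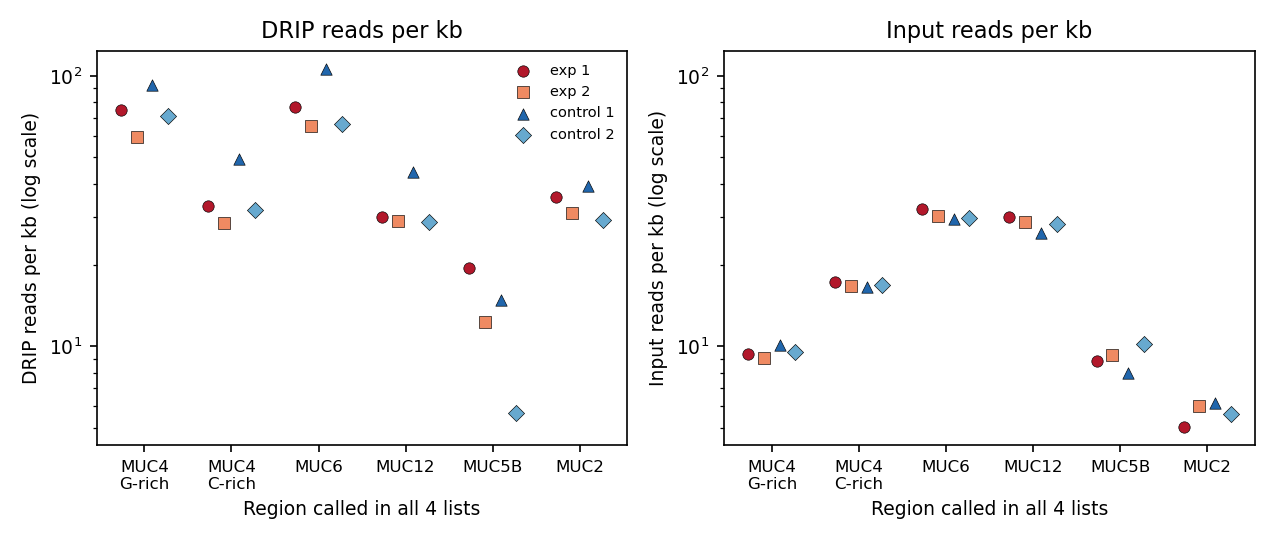
DRIP reads per kb (left) and input reads per kb (right), both on log axes, for the merged mucin regions with a peak in all 4 lists, with 1 point per library (exp 1, exp 2, control 1, control 2 from left to right). DRIP densities of exp and control overlap in every region, and input density ranges from 5.03 reads per kb at MUC2 to 32.3 at MUC6.

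Most mucin peaks were C-rich on the coding strand. Skew was below 0 in 38 of the 59 peaks and above 0 in 21, of which 14 belonged to MUC4. Outside MUC4, 28 of 35 peaks were below 0, including all 5 of MUC6, all 5 of MUC12, all 6 of MUC5B, 5 of 6 of MUC16 and 3 of 4 of MUC5AC. Overlapping peaks of different libraries share their sequence, so these are not independent counts. By library, skew was below 0 in 7 of 11 and 7 of 10 mucin peaks in exp and in 13 of 21 and 11 of 17 in control, where 53.6% and 49.8% of genic peaks in exp and 49% and 52.3% in control were below 0. Median skew was -0.388 and -0.383 in exp and -0.265 and -0.101 in control, beside -0.0225 and 0.0 in exp and 0.008 and -0.0154 in control for other genic peaks.

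Strongly C-rich peaks were counted as well. A skew of -0.3 or lower was held by 54.5% and 60.0% of mucin peaks in exp (6 and 6 peaks) and by 42.9% and 35.3% in control (9 and 6 peaks). Among other genic peaks the shares were 13.9% and 15.1% in exp and 20.8% and 9.26% in control. The long C-rich region of MUC4 was split into more peaks in each exp list than in each control list, which enters these shares. Strongly G-rich peaks were not counted in this way, so these shares describe only 1 end of the skew. Mucin peaks lay at the other end too. MUC4 regions with skews of 0.310 to 0.431, 0.419 to 0.511, 0.622 to 0.689 and 0.779 to 0.905 were called in 3, 2, 2 and 4 libraries. Skew also reached 0.862 in a MUC5AC peak and 0.849 in a MUC16 peak.

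**Figure D5:**
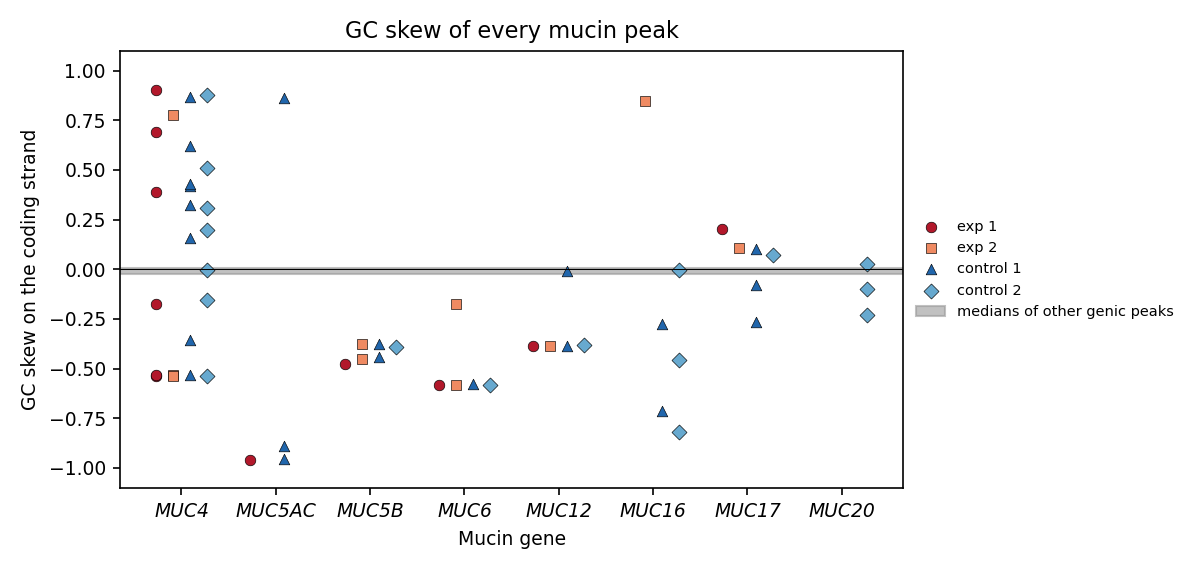
GC skew on the coding strand of each of the 59 mucin peaks, by gene and library, with the range of the medians of other genic peaks as a grey band. All peaks of MUC5B, MUC6 and MUC12 lie below 0, and MUC4 spans -0.539 to 0.905.

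Genes related to the mucins by function were counted in the same lists. A list of 10 further genes held MUC3A, MUC7, MUC13, MUC15, MUC19, MUC21, MUC22, EMCN, MCAM and OVGP1. Of these 10, 5 had a peak in some library, 2 and 1 in exp and 5 and 2 in control. MUC3A, a membrane mucin next to MUC12, was the one with peaks in all 4, and its peaks at chr7:100957655-100958910 were C-rich like those of MUC12, with skews from -0.629 to -0.603. That MUC3A region had the densest input of the mucin regions named here, 98.1 and 91.0 reads per kb in exp and 78.0 and 90.0 in control, beside 88 and 152 DRIP reads in exp and 297 and 126 in control. Of 42 genes of O-glycosylation, sialylation and goblet cells, 26 had a peak, 10 and 13 in exp and 20 and 19 in control. Of these, 6 had peaks in all 4 libraries, namely GALNT2, GALNT9, GALNT10, GALNT16 and GALNT17, transferases of the family that starts mucin-type O-glycosylation, and FCGBP, a protein of mucus. Over all genes with a peak, 10.9% had one in all 4 libraries, 8.52% in both controls alone and 1.37% in both exp libraries alone. GALNT12, another transferase of that family, was the one gene of the list with peaks in both controls and neither exp library (30 and 23 DRIP reads), and its peaks did not overlap each other. None of the 42 had peaks in both exp libraries and neither control. The nearest protein-coding genes on each side of the mucins made a further list of 10. Of these, 7 had a peak in some library, 3 and 2 in exp and 4 and 4 in control. MUC3A, which is in this list too, was the one with peaks in all 4.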

How the data were processed

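DRIP-seq peak lists of 2 exp and 2 control libraries of PC-9 cells were used. Each library has its own peak list. Bowtie2, MACS2, cutadapt, FastQC and DiffBind and the build GRCh38 appear in the submitters' processing notes, without settings. Per the file headers, each peak has whole, unscaled read counts of its DRIP library and of the input library. Fold enrichment over local background is the authors' ratio, used only to describe and rank peaks within a list. The deposited p-value and q-value columns were read as −log10 although the headers name a further multiplier, because the lowest p entry was 3.0. The GC skew is a score deposited by the authors; over 56 promoter windows inside peaks it correlated at r = 0.944 with the skew of the reference strand. Peak coordinates are as deposited. Hybrid spike-ins and an IgG precipitation, both named in the labels' protocols, were not analysed here.

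Mucin peaks were found by the assigned gene name, and overlapping peaks of different libraries (1 bp or more) were merged into regions. Values per library were compared by exact two-sided permutation tests. DRIP counts of regions with exactly 1 peak in each library were tested with edgeR 4.0.16 (quasi-likelihood, width offsets, TMM factors, adjusted p of 0.05 or less by Benjamini-Hochberg), after a check on simulated data, with DESeq2 1.42.0 as an alternative. Each library's counts cover its own peak intervals, and read counts without molecular identifiers are not independent molecules. Libraries of the same replicate number showed no shared deviation, which cannot tell whether they were prepared as pairs. All mucins were described, and peaks were named where a region recurred or where a gene's fold or input density was highest. Other peaks were named after their values were seen. These were MUC2, MUC5AC and MUC16 peaks labelled intergenic, the peaks of MUC3A and GALNT12, and single peaks of MUC6, MUC5AC, MUC5B, MUC16 and MUC20. The members and lists were chosen with earlier results of these data known.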

Additional observations from a re-analysis of the deposited data

How the results depend on the processing

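The number of mucin peaks, the bases under them, their DRIP reads per kb and per input read and their GC skew kept their direction, exp against control or mucin against other genic peaks, under every alternative that was run. Leaving out 1 library at a time gave exp over control ratios of 0.5 to 0.618 for peaks, 0.814 to 0.951 for peaks per 10000, 0.857 for mucins with a peak, 0.585 to 0.692 for bases, 0.737 to 0.930 for DRIP reads per kb and 0.616 to 0.901 for DRIP reads per input read, with 5 to 6 mucins in all remaining libraries. The median skew minus that of other genic peaks was -0.340 to -0.241, and the median input density differed by -1.19 to -0.540 reads per kb. The ratio of peaks per 10000 turned to 1.19 with q of 0.01 or less and to 1.05 when mucins were taken by RefSeq span, so its direction was not stable. With the same number of best peaks from each list the ratio of mucin peaks was 0.913 (exact p = 1), and as many mucins had a peak in exp as in control (6 against 6, a ratio of 1). Mucins in all 4 libraries fell to 3 with q of 0.01 or less, and to 3 with only peaks of more DRIP than input reads. Without MUC4, a choice made after seeing the data, the mean difference in input density turned to 0.845, through control 2 alone. In the edgeR test the log2 fold change turned to 0.0589 for MUC6 and to 0.00068 for MUC12 without control 1, where leaving out 1 library gave -0.224 to 0.0589 and -0.207 to 0.00068. Without the width offset it turned to -0.015 for MUC2 and 0.0596 for MUC4. Adjusted p stayed above 0.05 in each of these fits. Over all regions 2 were called with DESeq2's size factors and 3 without exp 1. The cause of these changes was not tested. Libraries of the same replicate number showed no shared deviation from their group means (r = -0.0689 over 1370 regions). That correlation cannot tell whether they were prepared as pairs. With the replicate block edgeR called 0 regions, and each exact test of 2 pairs gave the smallest p it allows, 0.5. The ratios were 0.877 for peaks per 10000, 0.553 for peaks and 0.634 for bases. The lists had medians of 24 to 30 DRIP reads per peak, which limits the precision of a single mucin peak.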
